A study of Mus musculus with 4 samples.

Results

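The respiratory chain genes are the genes for subunits of the mitochondrial complexes I to V. Members were found by symbol: mt-Nd, mt-Co, mt-Cytb and mt-Atp genes, Nduf genes of the a, b, c, s and v series, Sdha to Sdhd, Uqcr genes, Cox4 to Cox8 genes and Atp5 genes. The rule found 98 of the 32285 genes in the deposited table of raw counts, of which 85 are nuclear and 13 lie on the mitochondrial genome. By complex, the nuclear members number 38 for complex I, 4 for complex II, 8 for complex III, 18 for complex IV and 17 for complex V, and the mt- members 7, none, 1, 3 and 2.

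The cells came from EO771 tumors, grown from a mouse mammary tumor cell line placed in the mammary gland of C57BL/6 mice, and were harvested at 1.5 cm3. Of the tumors, 2 grew in Csf1rfl/fl mice, in which both alleles of Csf1r carry loxP sites, and 2 in Lyve1CreCsf1rfl/fl mice. The latter carry the same alleles and in addition Cre under the control of Lyve1. Each tumor is named by the genotype of its host mouse, and the EO771 cells themselves carry neither change. The mice received no other treatment, and their age was not given in the sources used here. In this model Cre acts in every cell that expresses Lyve1, which includes lymphatic endothelium as well as LYVE-1+ macrophages, and the aim was to remove those macrophages. Viable CD45+ cells were sorted, marked with a hashtag antibody per tumor and sequenced in 2 Chromium runs, each a pool of 1 tumor of each genotype. A library of a run and the tumors in it therefore cannot be told apart. Values per tumor are given in the order Csf1rfl/fl run 1, Csf1rfl/fl run 2, Lyve1CreCsf1rfl/fl run 1, Lyve1CreCsf1rfl/fl run 2.

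The authors kept 28429 of 53361 cell barcodes, 4771 to 8699 per tumor, with a median of 3721 to 4657 unique molecular identifiers (UMIs) per cell. They kept cells with under 5% mitochondrial UMIs, so the highest mt- values are cut off in the cell types that held cells above that limit, which were all but the tumor or stromal cells. Cells were placed in 15 cell types by gates on lineage markers in the raw UMIs, and 9762 cells (34.3%) met no gate. The 139 cells that met 2 or more gates were left out. Markers that the gates did not use were looked up in each gate. In 11 gates every one of them was among the 3 highest gates, the exceptions being Ccl5 in CD8 T cells, Capg in regulatory T cells, Tcf7 and Il7r in CD4 T cells without Foxp3 and Cldn7 in tumor or stromal cells, and none was at 0. Csf1r, the targeted gene, was at 0.898, 0.964, 0.427 and 0.454 UMIs per 10000 UMIs over all kept cells, lower in both Lyve1CreCsf1rfl/fl tumors. Cells gated as C1q macrophages numbered 516, 339, 178 and 86 in the same order, and Ly6c2 monocytes 907, 917, 528 and 397. The part of these numbers in the lower Csf1r level was not tested. Lyve1 had 147 UMIs in all.

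The respiratory chain passes electrons from NADH (complex I) and succinate (complex II) through complex III to oxygen at complex IV, and the proton gradient that I, III and IV build drives ATP synthesis by complex V. Complex II is wholly nuclear-encoded, whereas the other complexes combine nuclear subunits with a few core subunits transcribed from mitochondrial DNA, so both genomes must be expressed for the chain to be assembled. Neutrophils are known for few mitochondria and a reliance on glycolysis, and dividing lymphocytes for an increase in mitochondrial biogenesis.

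Nuclear members lie on 19 chromosomes and have no shared position, so the 300 bases around each start site were searched for 3 short motifs known from promoters of such genes. RefSeq windows (GRCm38.p6) matched 67 of the 85 nuclear members. The NRF1 motif GCATGCGC was in 10 of 67 (14.9%), against 3.05% of 27025 genes with a window. The ETS motif CCGGAAGT was in 5 (7.46%, against 4.31% of all), and the YY1 motif AAGATGGC in 9 (13.4%, against 3.19%). Both strands were searched, and in some windows the NRF1 motif and its reverse complement GCGCATGC overlap. At least 1 of the motifs was in 23 members (34.3%). Stretches of up to 30 bases upstream of the RefSeq start site are shown for members described below, on the strand of the gene, with the motif in capitals. Those of Uqcrh and Atp5h are shown because these members went against the rest in mature dendritic cells (DCs). The others are examples of the NRF1 motif, in Ndufa11, Ndufa6 and Atp5g2, named in the comparisons, and in Sdhb, the complex II member with the most UMIs.
Uqcrh, ETS, chr4:116075071-116075092, minus strand: gagtatgccgcACTTCCGGcca
Atp5h, ETS, chr11:115419940-115419969, minus strand: ccaaggagagaACTTCCGGcaactctcttc
Sdhb, NRF1, chr4:140961206-140961235, plus strand: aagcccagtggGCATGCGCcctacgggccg
Ndufa11, NRF1, chr17:56717693-56717722, plus strand: ctgcactgcgcGCATGCGCgcacgccttgt
Ndufa6, NRF1, chr15:82354356-82354385, minus strand: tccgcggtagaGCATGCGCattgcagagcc
Atp5g2, NRF1, chr15:102671069-102671098, minus strand: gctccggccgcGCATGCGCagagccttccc
The mm10 gene annotation starts some of these genes further upstream, so the stretches of Sdhb and Atp5g2 lie wholly inside the annotated gene and those of Atp5h and Uqcrh in part. A match is a description of the letters in the window and not of binding. Of the other nuclear members named below as higher or lower in mature DCs, none with a window held any of the 3 motifs. Cox7a2l, Atp5g1 and Ndufa5 are among them. The named members are only some of those called in mature DCs, and motifs were not compared between all members that rose and fell. The ETS motif was also in Cox8a, Ndufs3 and Uqcr11, which are not named in that comparison.

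Levels are UMIs of a gene per 10000 UMIs of a cell type in a tumor. The kit counts 1 tag near the 3' end of each transcript, so a level does not scale with gene length. Over all kept cells, the nuclear members with the most UMIs in their complex were Ndufb1-ps for complex I (9.70 per 10000), a transcript listed under a pseudogene symbol, and Sdhb, the iron-sulfur subunit of complex II (1.10). They were Uqcrh, the hinge subunit of complex III (6.32), Cox8a of complex IV (10.7) and Atp5e, the epsilon subunit of the ATP synthase stalk (11.7). The mt- genes included higher levels, with mt-Co1, the catalytic subunit of complex IV, at 42.4 ± 2.01 (SD, n = 4 tumors) and mt-Co2, which takes electrons from cytochrome c, at 28.4 ± 0.626. At the low end, Cox8b and Cox8c had no UMI in any kept cell, and Ndufa4l2 had 35 UMIs and Cox4i2 121. The mt- gene with the fewest was mt-Nd6, with 2832 UMIs, the only member transcribed from the minus strand of mitochondrial DNA, where the other 12 lie on the plus strand.

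The summed nuclear level separated neutrophils from the other 12 cell types that were ordered by level. Gpnmb Mmp12 Arg1 macrophages (74 cells) and B cells (67 cells) were left out of the order. In neutrophils the 85 nuclear members together took 127, 76.4, 104 and 81.1 UMIs per 10000 (mean 97.3 ± 23.5, SD, n = 4). In mature DCs, next above, they took 236, 209, 248 and 211 (mean 226), and the tumors of both cell types did not overlap. From there the means rose to 328 in type 1 conventional DCs (cDC1), and each cell type overlapped its neighbour in the order. Of the 85 nuclear members, 76 had their lowest mean in neutrophils, while 27 had the highest in cDC1 and 24 in the tumor or stromal cells.

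The mt- members followed another order. Plasmacytoid DCs (pDCs), the interferon-producing DCs gated on Siglech, had the highest summed mt- level, at 258, 250.1, 266 and 246 UMIs per 10000, above CD8 T cells at 171, 216, 191 and 219 without overlap. The lowest were mature DCs, at 95.1, 88.5, 105 and 86.2, and neutrophils, at 113, 84.98, 113 and 79.5, which overlapped each other, while both lay under the Cd209a or Flt3 DCs at 116, 136, 139 and 130.4. Among the 13 mt- genes, 10 had their highest mean in pDCs and 11 their lowest in mature DCs. In pDCs mt-Co1 was at 67.5, 60.8, 70.0 and 59.7, mt-Co2 at a mean of 45.6 ± 2.77, and mt-Atp6, the proton channel subunit of complex V, at 40.6 ± 2.57. pDCs also had the highest median share of mt- UMIs per cell, 2.66%, and 5.65% of them lay between 4% and 5%, near the limit of the authors' filter, against 0.720% and 1.18% in mature DCs.

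The ratio of summed mt- to nuclear UMIs was 0.889, 1.11, 1.08 and 0.981 in neutrophils, the highest mean of the cell types (1.02). It was 0.886 in pDCs and fell to 0.410 in cDC1, with Cd209a or Flt3 DCs (0.428) and mature DCs (0.414) close above. Neighbours in this order overlapped. The neutrophil ratio was 1.45 in cells of 2000 to 6000 UMIs and 1.46 when barcodes of any mitochondrial share were used. That setting took every barcode of at least 500 UMIs with 1 hashtag at least 3 times the other. It thus took in cells that the authors left out for other reasons too. Neutrophils numbered 7403 in it, against 5084, and 3.94% of the 7403 had 5% or more mitochondrial UMIs.

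**Figure D1:**
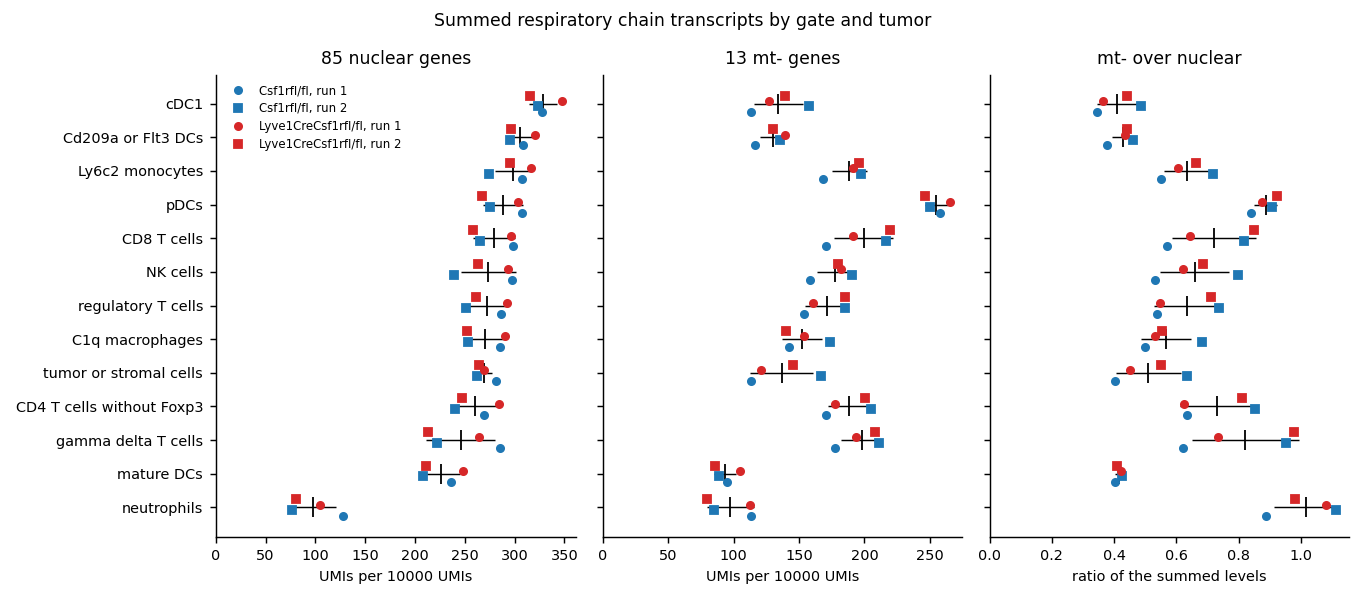
Summed levels of the 85 nuclear members, the 13 mt- members and their ratio by cell type, in UMIs per 10000 UMIs for the first 2 panels. Points are the 4 tumors (blue Csf1rfl/fl, red Lyve1CreCsf1rfl/fl, circles run 1, squares run 2) and bars the mean ± SD. Neutrophils stand lowest in the nuclear panel (mean 97.3) and highest in the ratio (1.02), and pDCs highest in the mt- panel (mean 255).

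The first comparison set neutrophils against Ly6c2 monocytes, another myeloid cell type of the blood and tumor. Of 80 nuclear members tested, 73 fell and 1 rose, against 34.1% of all 9487 genes lower and 33.3% higher (edgeR's quasi-likelihood test on UMIs summed per tumor, with the tumor as a block and Benjamini-Hochberg adjusted p under 0.05). The fall ran through every complex, with 36 of 37 tested members of complex I, 3 of 4 of complex II, 8 of 8 of complex III, 10 of 14 of complex IV and 16 of 17 of complex V. The median log2 fold change of the nuclear members was −0.93, against −0.12 over all genes tested. The median of the mt- members on this scale, −0.12, was that of all genes, with 2 of 13 called lower and 1 higher. Per 10000 UMIs, their summed level was lower in neutrophils without overlap, at 113, 84.98, 113 and 79.5 against 169, 197, 192 and 196 in monocytes (0.524 times).

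Among single members, Ndufc2, an accessory subunit of complex I, was at 0.999, 0.418, 0.736 and 0.386 per 10000 in neutrophils and at 3.29, 2.55, 3.43 and 2.85 in monocytes. Every neutrophil value lay under every monocyte value, and the log2 fold change was −1.44 ± 0.14 (SE, edgeR adjusted p = 1.01e-06). Complexes were assigned by symbol, so Ndufa4 and Ndufa4l2 are counted under complex I throughout. Ndufa4, first assigned to complex I and now known as a subunit of cytochrome c oxidase, was at 1.77, 0.922, 1.18 and 1.11 against 5.38, 5.16, 6.04 and 5.62. It too was without overlap, at a log2 fold change of −1.33 ± 0.12 (edgeR adjusted p = 6.53e-07). The accessory complex I subunits Ndufa11 and Ndufc1 fell by 1.39 and 1.36 on the log2 scale. Cox6b2, the testis form of a complex IV subunit, fell by 1.63, on only 23 UMIs in neutrophils and 117 in monocytes.

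Among members of the same complexes that did not pass the test was Cox8a, at 8.10, 4.89, 7.68 and 5.31 in neutrophils and 13.7, 10.7, 14.1 and 11.1 in monocytes (log2 fold change −0.10). Others were Atp5l of the ATP synthase membrane part (−0.04) and Sdhd, a membrane anchor of complex II (−0.06). Cox7a2l, counted here under complex IV, was at 0.04 (−0.82 and called lower with library size alone), and Ndufa7 at −0.25 (edgeR adjusted p = 0.0636). Cox7a1 was not called either. Cox8a shows the effect of scaling, since its levels per 10000 did not overlap either. The fold changes are relative to TMM factors, which hold most genes near 0. In neutrophils the alarmins S100a8 and S100a9 took 563 and 748 of 10000 UMIs. With these, ribosomal, mt- and other abundant genes left out of the denominator, the summed nuclear level of neutrophils was 0.337 times that of monocytes, against 0.324. The cause of the gap between scalings was not tested. With library size alone, the median over all genes moved from −0.12 to −0.97 and the share of calls that were higher from 49.4% to 19.5%. In that setting 79 nuclear and 12 mt- members were lower, where 67.3% of all genes were lower and 16.3% higher. Relative to the median of all genes, 75 of 80 nuclear members lay under it with TMM, with relative log expression factors and with library size alone, and of the mt- members 6, 5 and 7.

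The mt- calls were small and depended on such choices. On the TMM scale mt-Nd1 and mt-Nd3, core membrane subunits of complex I, differed by −0.31 and −0.35 (log2) and mt-Nd6 by 0.52, but mt-Nd6 was at 0.161, 0.104, 0.149 and 0.0595 per 10000 in neutrophils and 0.157, 0.146, 0.166 and 0.160 in monocytes, which overlap. Its fold change was −0.34 with library size alone. With barcodes of any mitochondrial share, mt-Nd1 was at 0.22 (edgeR adjusted p = 0.0757) and mt-Nd3 at 0.09. In that setting 9 mt- members were called higher and 0 lower, against 33.7% of all genes higher and 36.2% lower. Among the 9 were mt-Atp8, mt-Atp6, mt-Nd4l, mt-Nd4 and mt-Cytb, at 0.25 to 0.41. These were not called in the main fit and were called lower with library size alone.

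Most other mitochondrial gene lists in the same comparison also had more members lower than higher, where 34.1% of all genes were lower and 33.3% higher. Lower in neutrophils were 70 of 78 mitochondrial ribosome genes (1 higher), 11 of 13 citric acid cycle genes, 25 of 36 assembly factors (2 higher), 4 of 5 electron carrier genes and 5 of 9 genes for mitochondrial DNA expression. The exception was the list of regulators, with 4 of 6 higher and 1 lower. In it Nrf1, a transcription factor for respiratory chain genes, rose by 0.91 ± 0.14 (log2, SE) and Hif1a, the oxygen-sensing factor, by 1.97 ± 0.10. Neutrophils had a median of 2145.5 UMIs per cell and monocytes 4870. At 2000 to 6000 UMIs per cell the summed nuclear level of neutrophils was 0.240 times that of monocytes, against 0.324 in all cells.

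**Figure D2:**
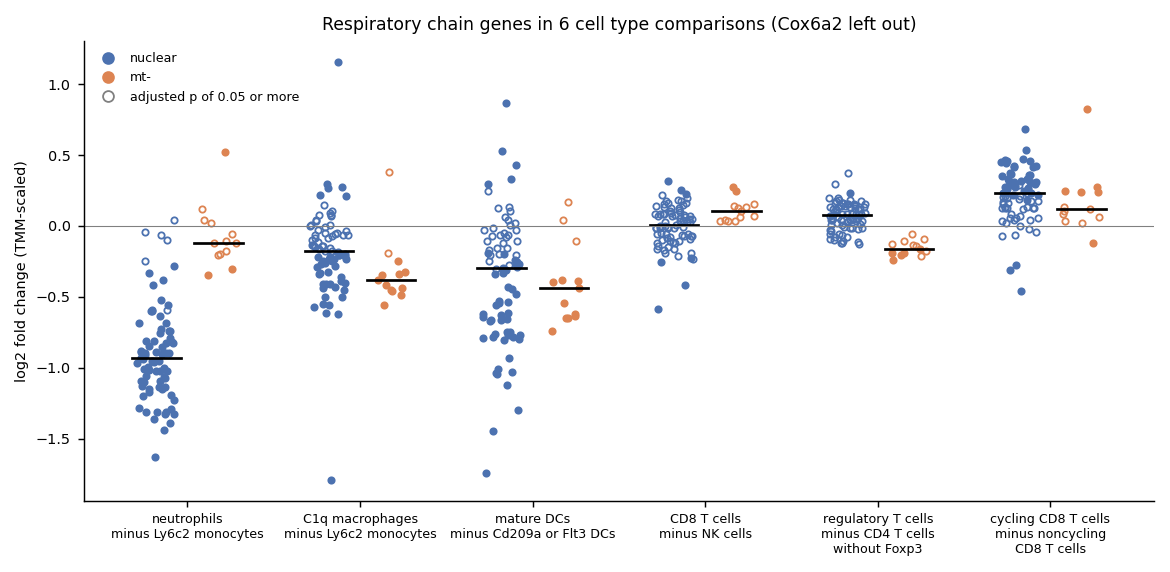
Log2 fold change of each tested member in the 6 comparisons of cell types, nuclear and mt- members apart, with Cox6a2 left out. Filled points passed the edgeR test at an adjusted p under 0.05 and bars are medians. The nuclear median was −0.93 for neutrophils against monocytes, −0.30 for mature DCs against Cd209a or Flt3 DCs and 0.23 for cycling against noncycling CD8 T cells.

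C1q macrophages, gated on the C1q genes and on Csf1r, Adgre1 or Cd68, were also compared with Ly6c2 monocytes. Here the mt- members fell: 11 of 13 were lower and none higher, with a median log2 fold change of −0.38. Of 79 nuclear members 34 fell and 6 rose (median −0.18), against 16.9% of 8985 genes lower, 13.6% higher and a median of 0.00. With library size alone, 21 nuclear members were lower and 7 higher and 10 mt- members were lower, against 13.2% of all genes lower and 18.3% higher, and the share of all calls that were higher went from 44.5% to 58.1%. Without the tumor as a block, 10 nuclear and 6 mt- members were lower, against 9.05% of all genes.

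By role, read against 16.9% of all genes lower and 13.6% higher, 14 of 37 nuclear members of complex I were lower and 3 higher. In complex III 2 of 8 were lower and none higher, and in complex IV 7 of 13 lower and 2 higher. In complex V 11 of 17 were lower and 1 higher, while none of the 4 of complex II was called in either direction. Uqcrh was at 3.77, 3.84, 4.80 and 4.02 in C1q macrophages and 5.61, 5.57, 6.69 and 6.02 in monocytes, without overlap (log2 fold change −0.62 ± 0.07, SE, edgeR adjusted p = 3.34e-06). Atp5h, subunit d of the peripheral stalk of complex V, was at 6.36, 5.34, 6.39 and 5.59 against 8.21, 7.48, 9.03 and 8.34, also without overlap (−0.56 ± 0.07). The complex I subunits Ndufb11 (−0.61) and Ndufb2 (−0.57) fell by a like amount, and Cox6b2 by 1.79 on 17 UMIs in the macrophages.

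Among the members that rose, Cox7a1, known as the heart and muscle form of a complex IV subunit, was at 0.0727, 0.136, 0.106 and 0.261 in C1q macrophages and 0.0577, 0.0501, 0.0426 and 0.0424 in monocytes. The groups did not overlap, but the values rest on 80 and 72 UMIs (log2 fold change 1.16 ± 0.32, edgeR adjusted p = 0.00995). Smaller rises were those of Ndufc2 (0.28), the complex IV subunit Cox5a (0.22) and Atp5g2, a gene for the c-ring of complex V (0.21), of which Atp5g2 was at −0.01 in cells of 2000 to 6000 UMIs. None of these small rises was called without the tumor as a block. Of the other lists, read against the 13.6% of all genes higher and 16.9% lower, 16 of 78 mitochondrial ribosome genes rose and 6 fell. Assembly factors had 6 of 35 higher and 3 lower, electron carriers 1 of 5 lower, mitochondrial DNA expression 1 of 8 lower, regulators 1 of 7 in each direction and the citric acid cycle 1 of 13 in each direction.

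Mature DCs, gated on the chemokine receptor Ccr7 and on Fscn1, were compared with the Cd209a or Flt3 DCs. Most members called were lower, and a few went against them. Of 79 nuclear members 46 fell and 5 rose, and of 13 mt- members 10 fell and none rose, against 29.4% of 6965 genes lower and 31% higher. The medians were −0.30 for nuclear and −0.44 for mt- members, and 0.03 for all genes. With library size alone the median of all genes was −0.20, the share of calls that were higher 37.7% instead of 51.3%, and 66 nuclear members fell and 3 rose, against 38.4% of all genes lower and 23.2% higher. Without the tumor as a block 33 fell and 3 rose, against 26.1% and 27.3%. Under each scaling 68 of 79 nuclear and 11 of 13 mt- members lay under the median of all genes.

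The calls by complex are read against 29.4% of all genes lower and 31% higher. In complex I 26 of 37 nuclear and 6 of 7 mt- members fell (medians −0.55 and −0.62). In complex IV 5 of 13 nuclear members fell and 2 rose, and of its mt- members 1 of 3 fell. Complex II had 2 of 4 down. In complex III 5 of 8 nuclear members fell and 1 rose, and its mt- member mt-Cytb fell by 0.65 on the log2 scale. In complex V 8 of 17 nuclear members fell and 1 rose, and both mt- members fell (median −0.39).

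The largest well-measured fall was in Atp5g1, at 2.04, 1.20, 2.09 and 1.25 in mature DCs and 6.28, 4.36, 6.08 and 4.15 in Cd209a or Flt3 DCs. Every mature DC value lay under every other one (log2 fold change −1.45 ± 0.09, SE, edgeR adjusted p = 9.80e-14). Atp5g1, Atp5g2 and Atp5g3 encode the same mature c-ring subunit, and their balance differed. Of the UMIs of these 3 genes, Atp5g1 took 18.6%, Atp5g2 63.1% and Atp5g3 18.2% in mature DCs, against 37.7%, 43.5% and 18.9% in Cd209a or Flt3 DCs (means of 4 tumors).

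Ndufs8, a core iron-sulfur subunit of complex I, was at 0.749, 0.385, 0.548 and 0.348 in mature DCs against 1.68, 1.15, 1.71 and 1.25 (−1.30 ± 0.13, edgeR adjusted p = 1.25e-09). Ndufa5, an accessory subunit of its matrix arm, was at 0.560, 0.428, 0.722 and 0.607 against 1.48, 1.37, 1.55 and 1.45 (−1.12 ± 0.13, edgeR adjusted p = 9.97e-09). Neither overlapped between the cell types. Ndufb2 fell by 1.04, Cox6b2 by 1.74 (24 and 41 UMIs) and mt-Nd1 by 0.74 on the log2 scale.

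Uqcrh went the other way. It was at 9.87, 8.40, 9.66 and 8.56 in mature DCs and 5.48, 5.72, 7.01 and 5.25 in Cd209a or Flt3 DCs, higher without overlap (log2 fold change 0.86 ± 0.08, edgeR adjusted p = 4.81e-10). The genome also holds near-identical copies of Uqcrh (Uqcrh-ps1 and Uqcrh-ps2), so its count may lack reads that match those as well. Atp5h was at 10.48, 9.04, 10.4 and 8.97 against 8.87, 8.27, 8.88 and 7.68, again without overlap (0.43 ± 0.08, edgeR adjusted p = 1.51e-05).

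Cox7a2l was at 2.23, 2.76, 2.62 and 2.34 against 1.76, 1.89, 2.19 and 2.37, higher in mature DCs on the TMM scale in 4 of 4 tumors (0.53 ± 0.11, edgeR adjusted p = 8.51e-05), though the levels overlap. The complex I subunit Ndufb4 (0.33) and the complex IV subunit Cox7c (0.30) also rose, but with library size alone they were at 0.10 and 0.07 (edgeR adjusted p = 0.374 and 0.410), and without the tumor as a block their edgeR adjusted p was 0.0817 and 0.0856. Among the other lists, Cycs, the soluble carrier between complexes III and IV, fell by 1.56 ± 0.11. Read against the 29.4% of all genes lower and 31% higher, electron carriers had 4 of 5 lower and 1 higher, mitochondrial ribosome genes 36 of 76 lower and 7 higher, and citric acid cycle genes 7 of 12 lower and none higher. Assembly factors had 9 of 23 lower and 5 higher, mitochondrial DNA expression 1 of 3 lower and regulators 1 of 6 in each direction. These gates held 1270 and 416 cells, with medians of 4585 and 6391 UMIs.

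The cytotoxic lymphocytes, CD8 T cells and NK (natural killer) cells, differed in few members. Of 80 nuclear members 4 rose and 4 fell in CD8 T cells, with a median of 0.02, and of 13 mt- members 2 rose and none fell, with a median of 0.10. Of all 10078 genes, 10.6% were higher and 12.6% lower, so the share of nuclear members called was under that of all genes. Without the tumor as a block no member was called higher in either genome, against 7.14% of all genes, and of the members named here Ndufb11 alone was called lower. Ndufb11 was at 2.63, 2.27, 2.56 and 2.09 in CD8 T cells and 3.85, 3.07, 3.72 and 3.24 in NK cells, lower without overlap (log2 fold change −0.59 ± 0.07, SE, edgeR adjusted p = 7.07e-05). Ndufa4 was at 5.11, 4.70, 5.59 and 5.17 against 7.65, 5.89, 7.32 and 5.83, also without overlap (−0.42 ± 0.08, edgeR adjusted p = 0.00163). Smaller falls were those of Atp5mpl, a small subunit of complex V (−0.25), and Cox7a2 of complex IV (−0.23).

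The complex I subunits Ndufa12 (0.32), mt-Nd3 (0.28), Ndufc2 (0.25) and mt-Nd1 (0.24) rose in CD8 T cells. The levels of mt-Nd3 were 2.11, 4.89, 2.75 and 4.42 in CD8 T cells against 1.64, 3.76, 2.32 and 3.57 in NK cells, higher within each tumor but overlapping across tumors, since run 2 was above run 1 in both cell types. The other lists had few calls beside the 10.6% of all genes higher and 12.6% lower, with 3 of 36 assembly factors, 2 of 11 genes for mitochondrial DNA expression and 1 of 7 regulators higher and none lower. Mitochondrial ribosome genes had 5 of 78 higher and 2 lower, the citric acid cycle 2 of 13 higher and 1 lower, and electron carriers none of 5.

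Regulatory T cells were compared with CD4 T cells without Foxp3. The nuclear members differed little, with 1 of 78 higher and none lower, at a median of 0.07, while all 13 mt- members were under the median of all genes (0.00), with a median of −0.16 and 5 called lower. Of all 8335 genes, 2.84% were higher and 3.89% lower. The 5 were mt-Nd4 (log2 fold change −0.24 ± 0.06, SE, edgeR adjusted p = 0.00737), mt-Cytb of complex III (−0.20), mt-Atp6 (−0.19), mt-Co1 (−0.19) and mt-Co3 (−0.16). The levels of mt-Nd4 were 8.27, 9.63, 9.02 and 9.83 against 9.40, 11.5, 10.4 and 11.4, lower in each tumor and overlapping across them.

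The one nuclear call, Atp5mpl, was at 4.11, 4.50, 4.59 and 4.94 in regulatory T cells and 3.76, 3.86, 3.72 and 3.79 in the other CD4 T cells, higher without overlap (0.23 ± 0.07, edgeR adjusted p = 0.0464). With no tumor block, and with DESeq2, no member was called in either genome in these directions, where 0.144% and 0.612% of all genes were higher and 0.6% and 1.27% lower. No gene of the other lists was called, among 76 mitochondrial ribosome genes, 32 assembly factors, 13 citric acid cycle genes, 7 genes for mitochondrial DNA expression, 6 regulators and 5 electron carriers.

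Cycling CD8 T cells (at least 2 UMIs of Mki67 and Top2a together) were set against CD8 T cells with neither. Members rose in every complex. Of 78 nuclear members 38 rose and 4 fell, and of 13 mt- members 5 rose and 1 fell, against 18.8% of 9138 genes higher and 18.5% lower. The medians were 0.23 for nuclear and 0.12 for mt- members, and −0.04 for all genes. By complex, 15 of 37 nuclear members of complex I, 2 of 4 of II, 4 of 8 of III, 7 of 12 of IV and 10 of 17 of V rose. Cycling cells had a median of 7891 UMIs and the others 3804, and in cells of 2000 to 6000 UMIs only 3 nuclear and 2 mt- members were called higher, against 9.2% of all genes. Without the tumor as a block 4 and 1 were, against 13% of all genes.

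Ndufa5 was at 2.40, 2.16, 2.72 and 2.27 in cycling and 1.57, 1.24, 1.74 and 1.32 in noncycling cells, higher without overlap (log2 fold change 0.69 ± 0.09, SE, edgeR adjusted p = 2.08e-06). It kept its call under every alternative run for this comparison. Atp5g3 was at 3.995, 3.56, 3.89 and 3.75 against 2.76, 2.52, 3.06 and 2.55 (0.47 ± 0.08, edgeR adjusted p = 4.42e-05). The values of mt-Nd6 were 0.273, 0.277, 0.334 and 0.321 against 0.166, 0.186, 0.148 and 0.166, without overlap as well (0.83 ± 0.18, edgeR adjusted p = 0.000873). Ndufa12 (0.54) and Cox7a2 (0.47) also rose, but were not called without the tumor as a block.

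Some members fell in cycling cells. Cox7a2l was at 1.77, 1.62, 1.61 and 1.59 against 2.35, 2.07, 2.33 and 2.24, lower without overlap (−0.46 ± 0.08, edgeR adjusted p = 0.000203) and called under every alternative run. Uqcrh was at 8.49, 7.34, 8.47 and 7.43 against 11.02, 9.20, 10.3 and 8.54, lower in each tumor and, since run 2 was lower in both, barely without overlap (−0.31 ± 0.06, edgeR adjusted p = 0.000351). Without the tumor as a block it had an edgeR adjusted p of 0.200. Ndufa6, an accessory subunit of complex I, fell by 0.27 and mt-Co1 by 0.12, and neither was called without that block.

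Of the other lists, read against the 18.8% of all genes higher and 18.5% lower, 38 of 78 mitochondrial ribosome genes rose and 1 fell, and 4 of 5 electron carriers rose. Cyc1, the cytochrome c1 subunit of complex III that the symbol rule does not take in, rose by 0.69 ± 0.11, Cycs by 0.59 ± 0.09, and Tfam, which packages and transcribes mitochondrial DNA, by 0.56 ± 0.15. Genes for mitochondrial DNA expression had 4 of 10 higher and 1 lower, citric acid cycle genes 3 of 13 higher, assembly factors 4 of 36 higher and 3 lower, and regulators 1 of 6 in each direction. These lists were not counted in cells of 2000 to 6000 UMIs, where most calls of members were lost.

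**Figure D3:**
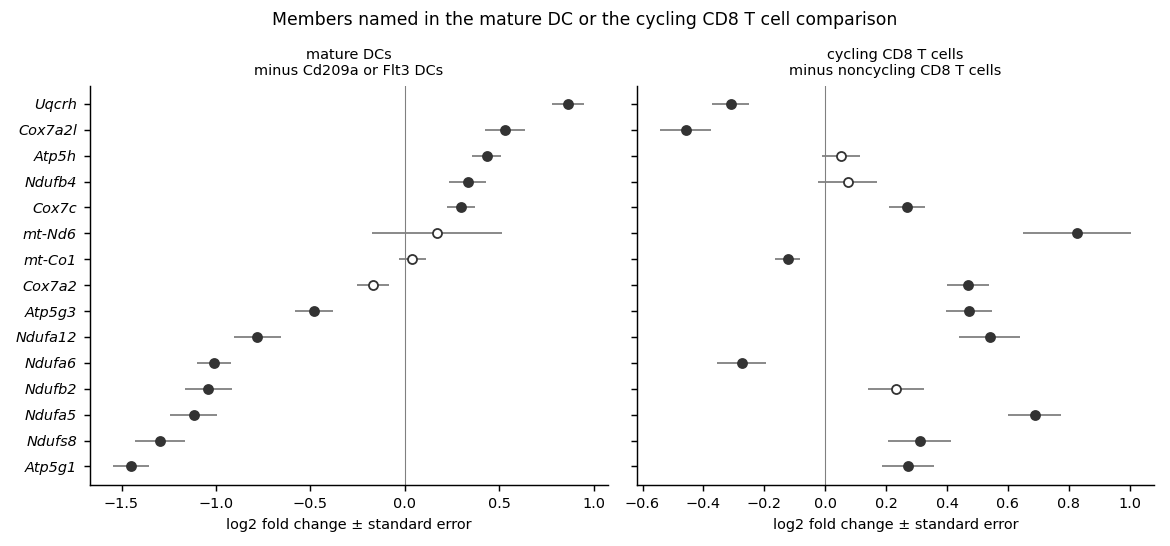
Log2 fold changes with standard errors of 15 members named for mature DCs against Cd209a or Flt3 DCs or for cycling against noncycling CD8 T cells, in both comparisons. Cox6a2 and Cox6b2, also named there, are not drawn. Uqcrh and Cox7a2l were higher in mature DCs (0.86 and 0.53) and lower in cycling CD8 T cells (−0.31 and −0.46), and Ndufa5 the reverse (−1.12 and 0.69).

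Cox6a2 stood apart from all other members. It is the heart and skeletal muscle form of the complex IV subunit VIa, encoded at chr7:128205435-128206387 on the minus strand (mm10), with Cox6a1 as its widely expressed relative. In pDCs it was at 22.8, 18.2, 22.8 and 16.0 UMIs per 10000 (19.9 ± 3.41, SD, n = 4, 4702 UMIs). Its next highest mean among the 13 ordered cell types was 0.239, in CD4 T cells without Foxp3, with no overlap. In the 67 B cells it was at 0, 1.45, 0 and 1.40, on 63 UMIs. A UMI of Cox6a2 was found in 432 of 478 pDCs (90.4%, median depth 4162 UMIs), and 87.9% of the Cox6a1 and Cox6a2 UMIs in pDCs were of Cox6a2. Cox6a1 in pDCs was at 2.36, 3.15, 2.39 and 2.79, close to its level over all kept cells (mean 2.52).

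Outside pDCs, Cox6a2 followed Siglech, the pDC marker. In the other gates, 115 cells had a Siglech UMI, and 75 of these (65.2%) had Cox6a2, with 761 UMIs. Of the 17935 cells without Siglech (median depth 3989 UMIs) 137 (0.764%) had Cox6a2, with 198 UMIs, a share taken here as background. Among cells that met no gate, 101 of 216 with Siglech (46.8%) had Cox6a2, with 966 UMIs. Of the 9546 without Siglech there, 133 (1.39%) had it, with 185 UMIs. The calls of Cox6a2 in the comparisons above were 3.74 ± 0.25 (log2, SE) in neutrophils against monocytes, 1.02 ± 0.27 in CD8 T against NK cells and −1.04 ± 0.35 in cycling against noncycling CD8 T cells. In neutrophils 251 of its 272 UMIs lay in 49 cells with Siglech. The gates for monocytes and NK cells admit no Siglech, and with such cells left out of every gate Cox6a2 no longer passed the filter on low counts in these comparisons. No doublet caller was run, and the part of doublets and free RNA in these values was not tested.

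**Figure D4:**
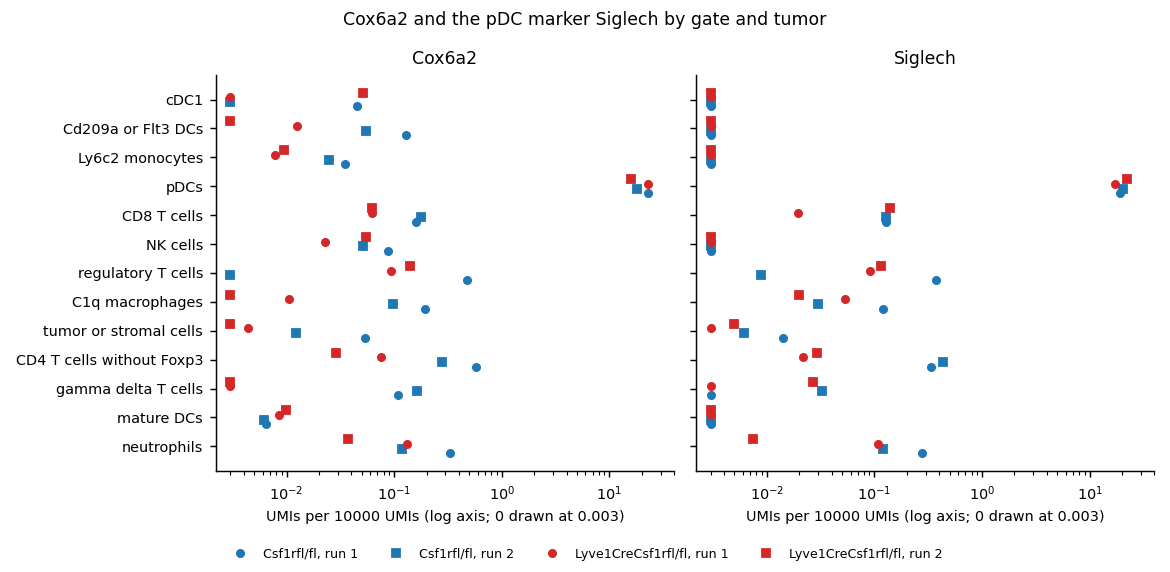
Levels of Cox6a2 and of the pDC marker Siglech in the 13 ordered cell types and each tumor (B cells are not drawn), in UMIs per 10000 UMIs on a log axis, with 0 drawn at 0.003. The 4 pDC points of Cox6a2 lie between 16.0 and 22.8, and every other Cox6a2 point drawn under 1.

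Other members with tissue-restricted relatives were rare. Cox7b2, the testis form of Cox7b, had 551 of its 691 UMIs in the 184 tumor or stromal cells, at 0.613, 0.451, 0.646 and 0.568 per 10000, where it made up 8.53% of the UMIs of Cox7b and Cox7b2. The means of all other gates in the order were 0.00298 or less. Those cells had a median of 48334 UMIs, and 19 of the 35 UMIs of Ndufa4l2, a hypoxia-induced relative of Ndufa4, were also among them. Cox6b2 had its highest mean in Cd209a or Flt3 DCs (0.150) and no UMI in tumor or stromal cells.

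The genotype comparison asked whether removal of Csf1r in Lyve1-expressing cells went with a difference in these genes within a cell type. In 10 cell types with at least 50 cells in each tumor, 910 tests of members gave 0 calls with edgeR's quasi-likelihood test, with 3 at an unadjusted p under 0.05, and 0 calls with DESeq2. Over all genes, 0 of 81809 tests were called, with 1518 at an unadjusted p under 0.05 (DESeq2 called 2). Median log2 fold changes of Lyve1CreCsf1rfl/fl against Csf1rfl/fl ranged from −0.11 in neutrophils to 0.09 in CD4 T cells without Foxp3 for nuclear members. For mt- members they ranged from −0.14 in C1q macrophages to 0.12 in Cd209a or Flt3 DCs. The median standard error of a member was 0.246 to 0.366 by cell type in this fit, which has no term for the run. An exact permutation test of 2 against 2 tumors cannot go under p = 0.333, so none was run on the summed levels.

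The 3 members at an unadjusted p under 0.05 were all Cox6a2, lower in the Lyve1CreCsf1rfl/fl tumors in C1q macrophages (−4.29), CD8 T cells (−1.44) and CD4 T cells without Foxp3 (−2.91). With Siglech cells left out, or with barcodes of any mitochondrial share, 0 members were at an unadjusted p under 0.05. With the Chromium run as a block, which pairs the tumors, 2 of 910 member tests were called, as were 124 of 81809 tests over all genes, so the share of members called was near that of all genes. At an unadjusted p under 0.05 there were 20 and 3875. Cox6a2 was lower in neutrophils, at 0.331, 0.118, 0.131 and 0.0372 per 10000 (log2 fold change −1.27, edgeR adjusted p = 0.00157). Without the block it was at −1.11, and its size rested on single tumors, at −0.16 without Csf1rfl/fl replicate 1, −2.57 without Lyve1CreCsf1rfl/fl replicate 1, −1.60 without Csf1rfl/fl replicate 2 and −0.64 without Lyve1CreCsf1rfl/fl replicate 2. With barcodes of any mitochondrial share it was at −0.19. Siglech was at 0.277, 0.120, 0.109 and 0.00743 in the same cells, and without Siglech cells Cox6a2 did not pass the filter there. Within pDCs themselves Cox6a2 overlapped between genotypes.

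The other blocked call was mt-Nd3 in Ly6c2 monocytes, at 1.51, 3.90, 2.70 and 3.83 per 10000. It was higher in the Lyve1CreCsf1rfl/fl tumor in run 1 and slightly lower in run 2, and the groups overlap (0.38, edgeR adjusted p = 0.0495 with the block and 0.9999 without). In the fit without the block it was at 0.28, and its direction turned with a tumor left out, at −0.19 without Csf1rfl/fl replicate 1, 0.9989 without Csf1rfl/fl replicate 2, 0.43 without Lyve1CreCsf1rfl/fl replicate 1 and 0.12 without Lyve1CreCsf1rfl/fl replicate 2. With DESeq2 and the block no member was called. The difference between cell types was also tested for a dependence on genotype in the 6 comparisons, with 0 members called by edgeR and 0 to 7 per comparison at an unadjusted p under 0.05. Over all 6965 to 10078 genes tested, 0 to 24 were called per comparison.

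The runs differed more than the genotypes. The summed nuclear level was higher in run 1 than in run 2 in both genotypes in 13 of 13 cell types. The summed mt- level was lower in run 1 in both genotypes in 7 and higher in 3 (neutrophils, mature DCs and pDCs), and the ratio of mt- to nuclear was lower in run 1 in 11. Between genotypes, the nuclear level was higher in Lyve1CreCsf1rfl/fl in both runs in 5 cell types and lower in 3, and the mt- level higher in 2 and lower in 1. Among single members mt-Nd3 showed it clearly, at 1.63 and 2.04 in run 1 and 3.48 and 3.47 in run 2 over all kept cells. Cell type comparisons were made within tumors and thus within runs.

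**Figure D5:**
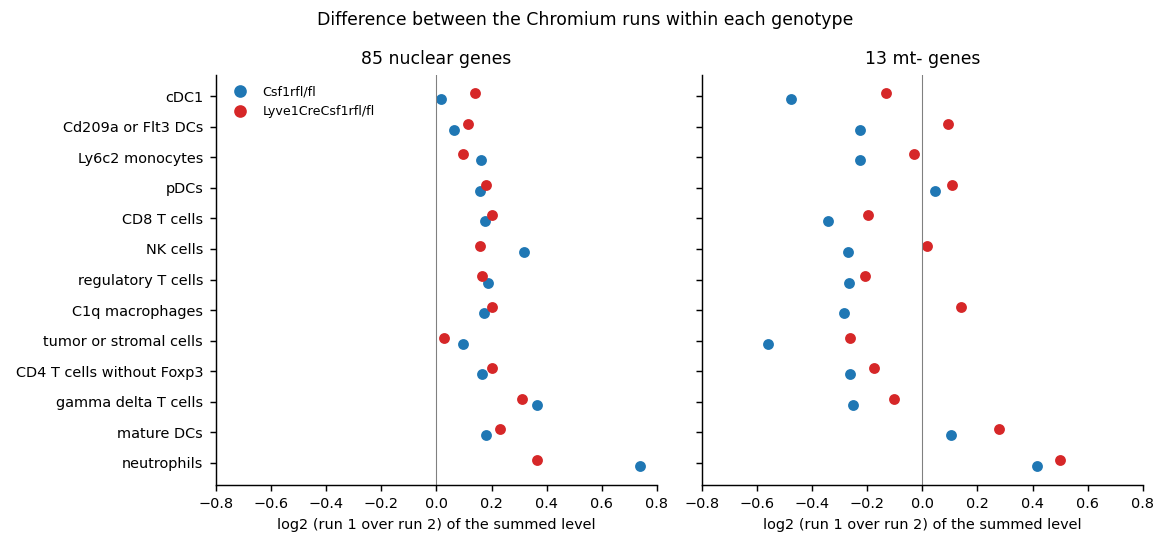
Log2 ratio of the summed level in run 1 to that in run 2, by cell type and genotype, for nuclear and mt- members. All nuclear points are above 0, in 13 of 13 cell types, while the mt- points lie on both sides.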

How the data were processed

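Viable CD45+ cells of 4 EO771 tumors were sequenced with the 10x Chromium 3' version 2 kit. The authors aligned reads to mm10 with Cell Ranger 6.0.1 and deposited counts of UMIs per gene and cell and counts of hashtag antibodies per cell, both not normalized. They also deposited a table of scores, the counts corrected with Seurat, for cells kept as singlets with under 5% mitochondrial reads and outside clusters nearly specific to 1 tumor. Of these scores, no value was used, and their cell names gave the cells kept. Counts of each hashtag were scaled by their mean on a log scale over the barcodes of the run. A cell was then given to the tumor whose scaled hashtag was higher. The runs shared 60 barcode sequences among kept cells, treated as separate cells.

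Cells were gated on raw UMIs of lineage markers. UMIs were summed per tumor and gate, filtered with filterByExpr, scaled by TMM and passed to edgeR 4.0.16 (R 4.3.3) for its quasi-likelihood test. Adjusted p-values (Benjamini-Hochberg, all genes tested) under 0.05 were called. A standard error is the log2 fold change divided by the root of the F statistic. Cell types were compared with the tumor as a block and genotypes without a block. Totals were 27686362 to 56715743 UMIs per tumor. The number of cells and tumors limits precision. An SD covers the spread between tumors, which may be in part technical. Standard errors of the cell type comparisons come from fits with the tumor as a block. They leave out differences that both cell types of a tumor share.

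The 2 runs pair the tumors across genotypes. Deviations of same-run tumors from their genotype means correlated at r = 0.21 to 0.91 over members and 0.15 to 0.44 over all genes in the 10 cell types, a description across genes that are not independent.

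Named members were, per comparison, up to 5 members that rose most and 5 that fell most, if called and of the same sign in every tumor, the mt- members, members with a tissue-restricted relative, the most abundant nuclear member of each complex, and members called between genotypes. mt-Nd3 and Cox6a2 in the blocked genotype comparison, and members that missed the threshold in neutrophils, were named after their values were seen. The members, gates and the lists of assembly factors, electron carriers, mitochondrial ribosome, citric acid cycle, mitochondrial DNA expression and regulators were chosen with earlier results of these data known. Promoter windows came from RefSeq. Among the members without a window were Atp5a1, Atp5f1, Atp5mpl, Cox4i1, Cox4i2, Cox6a2, Cox6c, Cox8c, Ndufa2, Ndufa4l2, Ndufb1-ps, Ndufb9, Ndufs1, Sdhc, Uqcrb, Uqcrc2 and Uqcrq. Alternatives covered scaling, the filter, DESeq2 1.42.0, hashtag assignment, depth, gates, the authors' choice of cells, the block and leaving out each tumor. Scripts were tested on simulated data.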

Additional observations from a re-analysis of the deposited data

How the results depend on the processing

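Most alternatives changed 1 choice. DESeq2 with the run block and Siglech cells left out with the run block changed 2. The setting of all barcodes, named above by any mitochondrial share, dropped the authors' choice of cells as a whole. It asked for at least 500 UMIs and a hashtag at least 3 times the other. B cells went from 67 to 3013 in it. The parts of these choices in its shifts cannot be told apart. Library size alone, Siglech cells left out and DESeq2 with the run block were chosen after seeing the data. Counts of members called in mature DCs against Cd209a or Flt3 DCs stayed within 1.5 times for members lower (46 nuclear and 10 mt-) under every alternative run, as did the 73 nuclear members lower in neutrophils. The 5 nuclear members higher in mature DCs were 3 with library size alone and 3 with no replicate block. Of all genes, 23.2% and 27.3% were higher in these settings. That comparison of DCs, and the genotype comparison in Cd209a or Flt3 DCs, were not run at 2000 to 6000 UMIs or with stricter gates, and Gpnmb macrophages were not tested, because a tumor had under 50 cells. The 2 mt- members lower in neutrophils were 0 with relative log expression factors, DESeq2, cells of 2000 to 6000 UMIs, stricter gates, all barcodes or no replicate block. They were 6 with no filter, 12 with library size alone and 0 to 4 with 1 tumor left out (4 without Csf1rfl/fl replicate 1, 0 without any of the others). Of all genes, 21.6% were lower with no filter, 67.3% with library size alone and 33.0% without Csf1rfl/fl replicate 1. The 1 mt- member higher was 9 with all barcodes and 3 at 2000 to 6000 UMIs, against 33.7% and 34.4% of all genes higher. It was 0 with no filter, DESeq2, library size alone or no replicate block, and 0 or 1 with a tumor left out. In C1q macrophages the 34 nuclear members lower were 21 with library size alone and 10 with no replicate block. Of all genes, 13.2% and 9.05% were lower in these settings. The 6 nuclear members higher were 2 with no filter, 2 with DESeq2, 1 at 2000 to 6000 UMIs and 1 with no replicate block. Of all genes, 7.53%, 7.15%, 9.99% and 8.08% were higher in these settings. With a tumor left out the nuclear members higher were 1 to 6 (1 without Csf1rfl/fl replicate 2), against 9.09% to 13.3% of all genes. The 11 mt- members lower were 6 with all barcodes and 6 with no replicate block, against 16.5% and 9.05% of all genes. In CD8 T against NK cells the 4 nuclear members higher were 0 with DESeq2, 1 with all barcodes, 8 with library size alone and 0 with no replicate block. Of all genes, 5.97%, 8.37%, 12.8% and 7.14% were higher in these settings. With a tumor left out the nuclear members higher were 0 to 3 (0 without Lyve1CreCsf1rfl/fl replicate 1, 1 without Csf1rfl/fl replicate 2), against 7.41% to 10.6% of all genes. The 4 lower were 2 with DESeq2, 8 at 2000 to 6000 UMIs, 2 with all barcodes and 1 with no replicate block. They were 8 without Csf1rfl/fl replicate 2 and 2 without any other tumor. The 2 mt- members higher were 4 with no filter, 1 with DESeq2, 0 with all barcodes, 6 with library size alone and 0 with no replicate block. Of all genes, 9.06%, 5.97%, 8.37%, 12.8% and 7.14% were higher in these settings. With a tumor left out the mt- members higher were 1 to 3 (1 without any but Csf1rfl/fl replicate 1), against 7.41% to 10.6% of all genes. In regulatory T cells the 1 nuclear member higher was 0 with DESeq2, at 2000 to 6000 UMIs, with all barcodes, with no replicate block and without any 1 tumor, and the 5 mt- members lower were 3 with no filter, 0 with DESeq2, 3 with stricter gates, 1 with all barcodes, 0 with no replicate block and 0 to 4 with a tumor left out (0 without Lyve1CreCsf1rfl/fl replicate 1, 3 without its replicate 2). In cycling CD8 T cells the 38 nuclear members higher were 25 with DESeq2, 3 at 2000 to 6000 UMIs and 4 with no replicate block. With a tumor left out they were 26 to 42. Of all genes, 11.4%, 9.2%, 13% and 15.4% to 17.6% were higher in these settings. The 5 mt- members were 2 at 2000 to 6000 UMIs, 1 with all barcodes and 1 with no replicate block. With a tumor left out they were 3 to 7 (3 without Lyve1CreCsf1rfl/fl replicate 1). Between genotypes the 0 calls became 3 with no filter, 1 at 2000 to 6000 UMIs, 1 with library size alone, 2 with the replicate block, 1 with the replicate block and Siglech cells left out, and 1 to 4 with a tumor left out (4 without Csf1rfl/fl replicate 2), where the lone tumor's spread is taken to equal that of the other genotype and every call was of Cox6a2. Those calls were lower in Lyve1CreCsf1rfl/fl, except that in regulatory T cells Cox6a2 went from −0.89 to 7.64 without Csf1rfl/fl replicate 1, which leaves that group at 0 UMIs so that the fold is no bound, and to −2.13 without Csf1rfl/fl replicate 2 (levels 0.473, 0, 0.0942 and 0.140 per 10000). The replicate block changed no other call of a member between genotypes. Levels that moved by over 1 SD were those of neutrophils over monocytes (nuclear 0.240 at 2000 to 6000 UMIs, mt- 0.693 with all barcodes), the mt- to nuclear ratio of neutrophils (1.45 and 1.46 in these settings), mature DCs over Cd209a or Flt3 DCs at 2000 to 6000 UMIs (mt- 0.546 and nuclear 0.793, from 0.721 and 0.740) and Cox6a2 in pDCs (24.5 at 2000 to 6000 UMIs, 28.6 with ribosomal, mt- and other abundant genes left out of the denominator). Among members called with or without the alternative, directions also turned for mt-Nd1 (0.22), mt-Nd3 (0.0907), mt-Atp8 (0.41), mt-Atp6 (0.27), mt-Nd4l (0.25), mt-Nd4 (0.29) and mt-Cytb (0.33) in neutrophils with all barcodes, mt-Nd6 (−0.34), mt-Nd2 (−0.82), mt-Co1 (−0.84), mt-Nd5 (−0.74) and Cox7a2l (−0.82) in neutrophils and mt-Co1 (−0.19) in mature DCs with library size alone, Atp5g2 in C1q macrophages (−0.00739) at 2000 to 6000 UMIs and, at that depth, Ndufa4 (−0.0363), Atp5g1 (−0.10) and Atp5g2 (−0.13) in cycling CD8 T cells. Of genotype differences not called either way, mt-Nd3 in Ly6c2 monocytes went from 0.28 to −0.19 without Csf1rfl/fl replicate 1, Cox6a2 in regulatory T cells from −0.89 to 2.60 with DESeq2 and the replicate block, and Cox6a2 in C1q macrophages from −4.29 to 0.15 with all barcodes. Apart from what the settings themselves fix (fewer cells, genes or tumors), the cause was not tested. Depth limits members under about 1 UMI per 10000, among them Cox6b2, Cox7a1, Cox7b2 and mt-Nd6, and the 5% filter limits mt- values in the gates that held cells above it.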
